A study of Rattus norvegicus with 6 samples.

Results

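The regulators of G protein signalling (RGS proteins) measured here were 10 genes, Rgs1, Rgs2, Rgs3, Rgs4, Rgs5, Rgs7, Rgs10, Rgs14, Rgs16 and Rgs19, out of 10411 rat genes that had a probe set. They were chosen by gene symbol in the platform's annotation, and all 10 had a probe set. Rgs2 and Rgs4 had another probe set besides the main one and Rgs3 had others too, which makes 14 probe sets of the 15866 tested. The family was picked out after the difference of Rgs4 between the diets was known, so the differences between diets below describe these arrays and are no test of the genes.

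The tissue was intact cerebral resistance artery, small vessels that arise directly from the arterial circle under the brain, taken from Dahl rats. The high salt group was fed chow with 8% NaCl from 7 weeks of age, for 11 weeks in one label field and 12 weeks in another. The low salt group was fed chow with 0.4% NaCl from 7 weeks of age for 12 weeks, and all rats had eaten the low salt chow before. Each group had 3 arrays, each array held RNA pooled from 3 rats, and so 9 rats stood behind each diet. The labels give no sex, no blood pressure and no further name of the strain, and RNA was amplified over a pair of cycles before hybridisation. Levels are in log2 units from RMA, a method that removes background, scales the arrays and combines each set's probes into a single value, so that 1 unit is a doubling of signal. Since probes differ in brightness, a higher level of one gene than of another is not read as more transcript.

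G protein-coupled receptors on arterial smooth muscle act through heterotrimeric G proteins, whose alpha subunit is active while it holds GTP. An RGS protein binds the active alpha subunit and speeds the hydrolysis of its GTP, which shortens the signal. In arteries this matters most for Gq, which leads to calcium release and contraction, and for Gi, which lowers cyclic AMP. Rgs2 prefers Gq, and mice without it are hypertensive. Rgs4 and Rgs5 act on Gi and Gq, and in mice Rgs5 is a well known transcript of pericytes and arterial smooth muscle.

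Of the 10 genes, 6 lie on chromosome 13 of the rat assembly GRCr8. Rgs5 and Rgs4 are direct neighbours among its protein-coding genes, Rgs16 lies beside Rgs8, and Rgs2 and Rgs1 lie on either side of Rgs13. The windows around the transcription start (250 bases before to 50 after it) of Rgs4, Rgs5 and Rgs2 are shown, since these are the members of the family best known from the vessel wall. The neighbours Rgs4 and Rgs5 also had unlike differences between diets on their main probe sets, less so on the other probe set of Rgs4. The sequences are those of RefSeq for GRCr8, which also held the windows of the other members (10 of 10 matched by symbol). Capitals mark 3 motifs, each searched on both strands. The TATA box was searched as TATAAA. For the CCAAT box the name gives the letters. For the core of a cAMP response element, which the full element contains, the letters were TGACG. The windows are chr13:84475835-84476134 on the minus strand for Rgs4, chr13:84380827-84381126 on the plus strand for Rgs5 and chr13:58352617-58352916 on the minus strand for Rgs2.
Rgs4: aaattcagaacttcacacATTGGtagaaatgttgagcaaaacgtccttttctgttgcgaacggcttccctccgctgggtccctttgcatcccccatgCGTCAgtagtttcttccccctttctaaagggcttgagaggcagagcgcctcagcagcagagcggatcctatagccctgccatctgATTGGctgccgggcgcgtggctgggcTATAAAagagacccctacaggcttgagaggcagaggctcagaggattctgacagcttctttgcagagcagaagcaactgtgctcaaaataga
Rgs5: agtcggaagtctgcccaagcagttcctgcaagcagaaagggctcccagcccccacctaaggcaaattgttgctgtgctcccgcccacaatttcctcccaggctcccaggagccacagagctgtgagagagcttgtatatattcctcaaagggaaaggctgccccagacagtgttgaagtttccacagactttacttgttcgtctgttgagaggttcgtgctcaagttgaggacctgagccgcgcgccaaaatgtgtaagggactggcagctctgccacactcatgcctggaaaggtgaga
Rgs2: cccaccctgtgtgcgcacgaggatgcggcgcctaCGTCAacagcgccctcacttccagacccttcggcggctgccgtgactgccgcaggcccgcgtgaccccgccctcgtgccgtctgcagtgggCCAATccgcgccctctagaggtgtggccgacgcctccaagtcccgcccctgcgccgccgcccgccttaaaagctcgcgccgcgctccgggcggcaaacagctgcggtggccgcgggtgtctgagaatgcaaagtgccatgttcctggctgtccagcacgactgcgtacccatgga

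The window of Rgs4 holds a TATA box that begins 42 bases before the start, CCAAT boxes on the other strand that begin 68 and 232 bases before it, and a cAMP response element core at 153 bases. The window of Rgs2 holds a CCAAT box at 125 bases and a cAMP response element core at 216 bases, and none of these 3 motifs is in the window of Rgs5. Over all 33469 windows of the RefSeq table, 14.2% held a TATA box, 37.5% a CCAAT box and 21.2% a cAMP response element core. Among the 10 members these motifs were found in 3, 3 and 4 windows. The full cAMP response element (TGACGTCA), the AP-1 site (TGANTCA) and the CArG box, the site of serum response factor in smooth muscle genes, were found in 0 of the 10 windows, against 1.83%, 7.33% and 1.64% of all windows. The GC box (GGGCGG), not marked in capitals, was found in 6 of the 10 windows, against 33.1% of all windows. Those of Rgs2 and Rgs5 (at 171 bases) were among them, and that of Rgs4 was not.

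The arrays were not equally alike. The deposited values had no common median, with 8.17, 8.15 and 8.17 on the high salt arrays, all above the 7.96, 8.07 and 8.07 on the low salt arrays. Over probe sets, the high salt arrays correlated at 0.980 to 0.987 with each other and the low salt arrays at 0.919 to 0.968. Arrays of different diets correlated at 0.926 to 0.988, so the closest pair of all came from different diets. Low salt replicates 1 and 3 stood apart from the rest in markers of brain tissue. Averaged over 10 astrocyte markers, the level was between 10.24 and 10.56 with high salt, against 9.22, 10.55 and 8.55 on low salt replicates 1, 2 and 3. Smooth muscle markers were present at high levels, with a mean over 10 genes between 11.62 and 11.75 after high salt and between 11.52 and 12.25 after low salt. Over all 10411 genes the median difference, high salt minus low salt, was 0.067, and it was -0.064 after median centring. In the fit over all probe sets (limma, Benjamini-Hochberg) 0 of 15866, those of the RGS genes included, passed an adjusted p of 0.05, that is 0.0%, while 846 (5.33%) had an unadjusted p below 0.05.

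Levels of 5 of the RGS genes were higher on average after high salt and 5 were lower, but 3 were higher after quantile normalization and 9 relative to smooth muscle markers. The median difference was 0.060, beside 0.067 for all genes. Both diets were free of overlap for 2 of them, Rgs4 (lower after high salt) and Rgs1 (higher), where 12.0% of all genes had no overlap. By direction the background was 3.32% of genes lower without overlap and 8.64% higher without overlap. The difference exceeded 2 SE for 1 gene, Rgs4, and was smaller than 1 SE for 5.

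**Figure D1:**
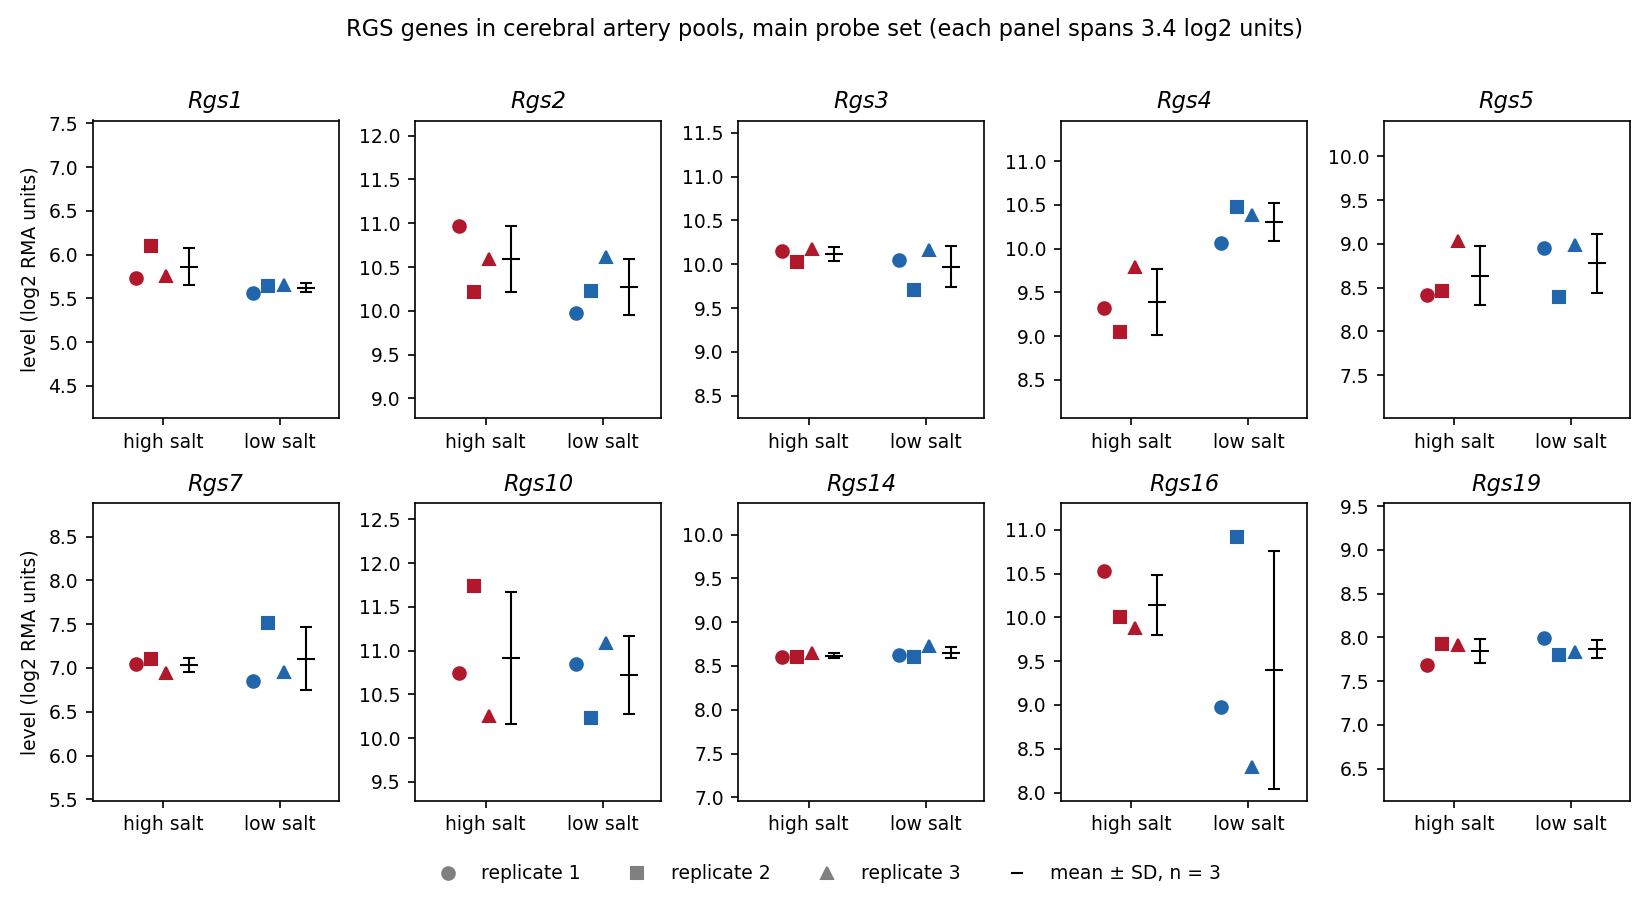
Level of the main probe set of each RGS gene (log2 RMA units, vertical axis) on each array, with high salt left and low salt right in every panel; marker shapes are replicates and bars are the mean ± SD of 3 arrays. Rgs4 is lower on all 3 high salt arrays (9.05 to 9.79) than on any low salt array (10.06 to 10.48), while Rgs16 spreads from 8.29 to 10.92 within low salt.

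Rgs4, which acts on both Gi and Gq, had levels of 9.32, 9.05 and 9.79 on the high salt arrays, against 10.06, 10.48 and 10.38 on the low salt arrays. All 3 high salt arrays lay below all 3 low salt arrays, with high salt replicate 3 the nearest to the low salt values. The means were 9.39 ± 0.38 after high salt and 10.31 ± 0.22 after low salt (SD, n = 3 each). The difference was -0.92 ± 0.22 (SE), which corresponds to 0.528 times the low salt signal, and 2.52% of all genes differed by more in either direction. Median centring gave -1.05 and quantile normalization -1.16. With 1 array left out it ran from -1.12 (without high salt replicate 3) to -0.75 (without high salt replicate 2).

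The other probe set of Rgs4 gave a smaller difference. Its levels were 7.92, 7.85 and 8.52 on the high salt arrays and 8.07, 8.64 and 8.45 on the low salt arrays. Here the diets overlapped, since high salt replicate 3 lay above low salt replicates 1 and 3. The difference was -0.29 ± 0.24 (SE). Both probe sets were lowest on high salt replicate 2 and highest on low salt replicate 2, and their correlation over the 6 arrays was 0.82. The mean of both probe sets differed by -0.61.

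Rgs5, the neighbour of Rgs4 on chromosome 13, had levels of 8.42, 8.46 and 9.03 on the high salt arrays, against 8.95, 8.39 and 8.98 on the low salt arrays. In each diet 1 array stood apart from the other two, high salt replicate 3 above its diet and low salt replicate 2 below its own. The means were 8.64 ± 0.34 after high salt and 8.78 ± 0.33 after low salt (SD, n = 3 each), a difference of -0.14 ± 0.24 (SE). The spread within each diet was thus wider than the difference between diets. The difference was -0.33 without high salt replicate 3 and -0.33 without low salt replicate 2. Leaving out any other array brought it closer to 0, between -0.052 and -0.031. A single probe set measured the gene.

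Rgs2, the Gq-preferring member, had levels of 10.97, 10.21 and 10.59 on the high salt arrays, against 9.97, 10.22 and 10.61 on the low salt arrays. The diets overlapped over most of their range, with high salt replicate 1 alone above all low salt arrays. The means were 10.59 ± 0.38 after high salt and 10.27 ± 0.32 after low salt (SD, n = 3 each), a difference of 0.32 ± 0.25 (SE). It was 0.19 after median centring, 0.094 after quantile normalization and 0.61 relative to smooth muscle markers. With 1 array left out it ran from 0.13 (without high salt replicate 1) to 0.51 (without high salt replicate 2). The other probe set of Rgs2, whose levels of 6.50 to 7.14 lay near the lower quartile of the arrays (6.53 to 6.65), gave -0.080 ± 0.21 (SE), opposite in sign. The probe sets of Rgs2 correlated at -0.34 over the 6 arrays, unlike those of Rgs4.

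Rgs3, a larger member of the same subfamily that also binds G beta gamma in its long forms, had levels of 10.16, 10.03 and 10.18 on the high salt arrays, against 10.04, 9.71 and 10.16 on the low salt arrays. The high salt arrays spanned 0.14 log2 units and the low salt arrays 0.45, with low salt replicate 2 the lowest of all. The difference was 0.15 ± 0.14 (SE), and with 1 array left out it ran from 0.019 (without low salt replicate 2) to 0.24 (without low salt replicate 3). It was 0.020 after median centring and 0.43 relative to smooth muscle markers. It turned to -0.11 after quantile normalization. The other probe sets of Rgs3 gave 0.00314 ± 0.19 and 0.00566 ± 0.23 (SE), and each was lowest on low salt replicate 2 and highest on low salt replicate 3.

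**Figure D2:**
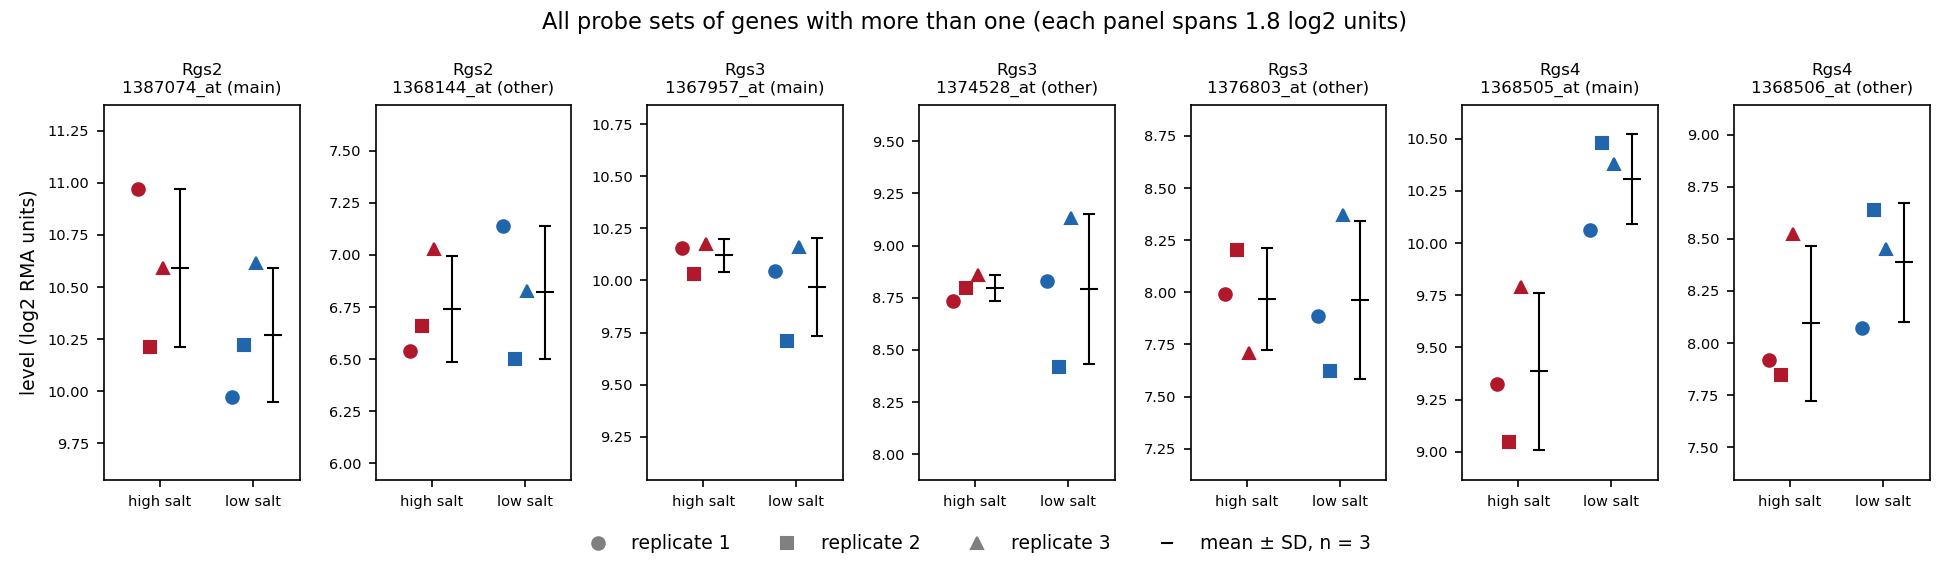
Level (log2 RMA units, vertical axis) of every probe set of Rgs2, Rgs3 and Rgs4 on each array, high salt left and low salt right; bars are the mean ± SD of 3 arrays. The main probe set of Rgs4 separates the diets (9.05 to 9.79 against 10.06 to 10.48) and its other probe set does not (7.85 to 8.52 against 8.07 to 8.64).

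Rgs16, an RGS protein of the same small type as Rgs4 and Rgs5, varied most within a diet. Its levels were 10.53, 10.01 and 9.88 on the high salt arrays, against 8.98, 10.92 and 8.29 on the low salt arrays. Low salt replicate 2 was the highest of all 6 arrays and low salt replicates 1 and 3 were the lowest. The means were 10.14 ± 0.35 after high salt and 9.40 ± 1.36 after low salt (SD, n = 3 each), a difference of 0.74 ± 0.68 (SE). Only 0.912% of all genes had a wider range over the 6 arrays than the 2.63 log2 units of Rgs16. Leaving out low salt replicate 2 gave 1.50, leaving out replicate 1 of that diet 0.53 and leaving out its replicate 3 gave 0.19.

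The order of the arrays for Rgs16 was close to that of the astrocyte markers. Low salt replicate 3 was the lowest and low salt replicate 1 the next lowest for both, while low salt replicate 2 and high salt replicate 1 were the highest for both. Neuronal markers had the same order of arrays as Rgs16, from 8.12 on low salt replicate 2 to 7.41 on low salt replicate 3. The oligodendrocyte markers were also highest on low salt replicate 2 and lowest on low salt replicates 3 and 1. The pattern was thus not particular to astrocytes. Of the 10 astrocyte markers 9 were higher after high salt on average, and the mean level of the brightest, Gja1 (a connexin), differed by 0.71 ± 0.49 (SE). The part of astrocyte or other brain RNA in the values of Rgs16 was not tested. In pooled tissue of this kind, fewer cells of a type and less RNA per cell cannot be told apart.

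Rgs1, known from lymphocytes and other immune cells, had levels of 5.73, 6.10 and 5.76 on the high salt arrays, against 5.56, 5.65 and 5.66 on the low salt arrays. All 3 high salt arrays lay above the low salt arrays, by a gap that was small beside the reach of high salt replicate 2. All 6 values were below the lower quartile of their arrays, where a difference says little about the transcript. The difference was 0.24 ± 0.13 (SE), and 0.12 without high salt replicate 2. After median centring it was 0.11 and the diets overlapped.

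Rgs10, a short Gi-directed RGS protein of microglia and macrophages, had levels of 10.74, 11.74 and 10.26 on the high salt arrays, against 10.85, 10.23 and 11.08 on the low salt arrays. High salt replicate 2 stood highest and the other arrays of both diets were interleaved. The difference was 0.19 ± 0.43 (SE). Without high salt replicate 2 it turned to -0.22 and without low salt replicate 2 to -0.053, and without high salt replicate 3 it was 0.52. The mean of 7 macrophage and microglia markers was also highest on high salt replicate 2, at 9.59. It was 9.17 and 9.32 on the other high salt arrays, and 8.79, 8.84 and 9.24 on low salt replicates 1, 2 and 3. Of these markers 5 were higher (4 with median centring, 3 with quantile normalization), and their part in the values of Rgs10 and Rgs1 was not tested. Lymphocyte markers had means between 6.32 and 6.58 after high salt and between 6.54 and 6.63 after low salt, and 3 of 8 were below the lower quartile on every array.

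Rgs7, which works in neurons as a complex with the G beta 5 subunit, had levels of 7.05, 7.11 and 6.94 on the high salt arrays, against 6.85, 7.52 and 6.95 on the low salt arrays. Low salt replicate 2 stood above the other 5 arrays, which lay between 6.85 and 7.11. The difference was -0.073 ± 0.19 (SE) and turned to 0.13 without low salt replicate 2. The mean of 10 neuronal markers was also highest on that array, at 8.12, beside 7.77 to 8.01 on the high salt arrays and 7.58 and 7.41 on low salt replicates 1 and 3. Of those markers 2 were below the lower quartile on every array. The match was not particular to neurons, since oligodendrocyte markers were highest on low salt replicate 2 too, at 9.31. Rgs7 was lowest on low salt replicate 1, and the neuronal markers on low salt replicate 3. Gnb5 itself, the partner of Rgs7, differed by -0.039 ± 0.23 (SE), by -0.17 after median centring, by -0.27 after quantile normalization and by 0.24 relative to smooth muscle markers.

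Rgs14 and Rgs19 hardly varied. Rgs14, which joins an RGS domain to a GoLoco motif that holds Gi in its inactive state, had levels of 8.60, 8.61 and 8.65 on the high salt arrays, against 8.63, 8.61 and 8.72 on the low salt arrays. Its range over the 6 arrays was 0.12 log2 units, and 1.85% of all genes had a narrower one. The difference was -0.034 ± 0.087 (SE). After median centring it was -0.17 and after quantile normalization -0.22, both with all high salt arrays below the low salt arrays. Rgs19, first described as a protein that binds a Gi alpha subunit, had levels of 7.68, 7.93 and 7.91 on the high salt arrays, against 7.99, 7.80 and 7.83 on the low salt arrays. The diets overlapped and the difference was -0.031 ± 0.12 (SE). Neither sign was stable, since that of Rgs14 turned without low salt replicate 3 and that of Rgs19 without high salt replicate 1 or low salt replicate 1.

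**Figure D3:**
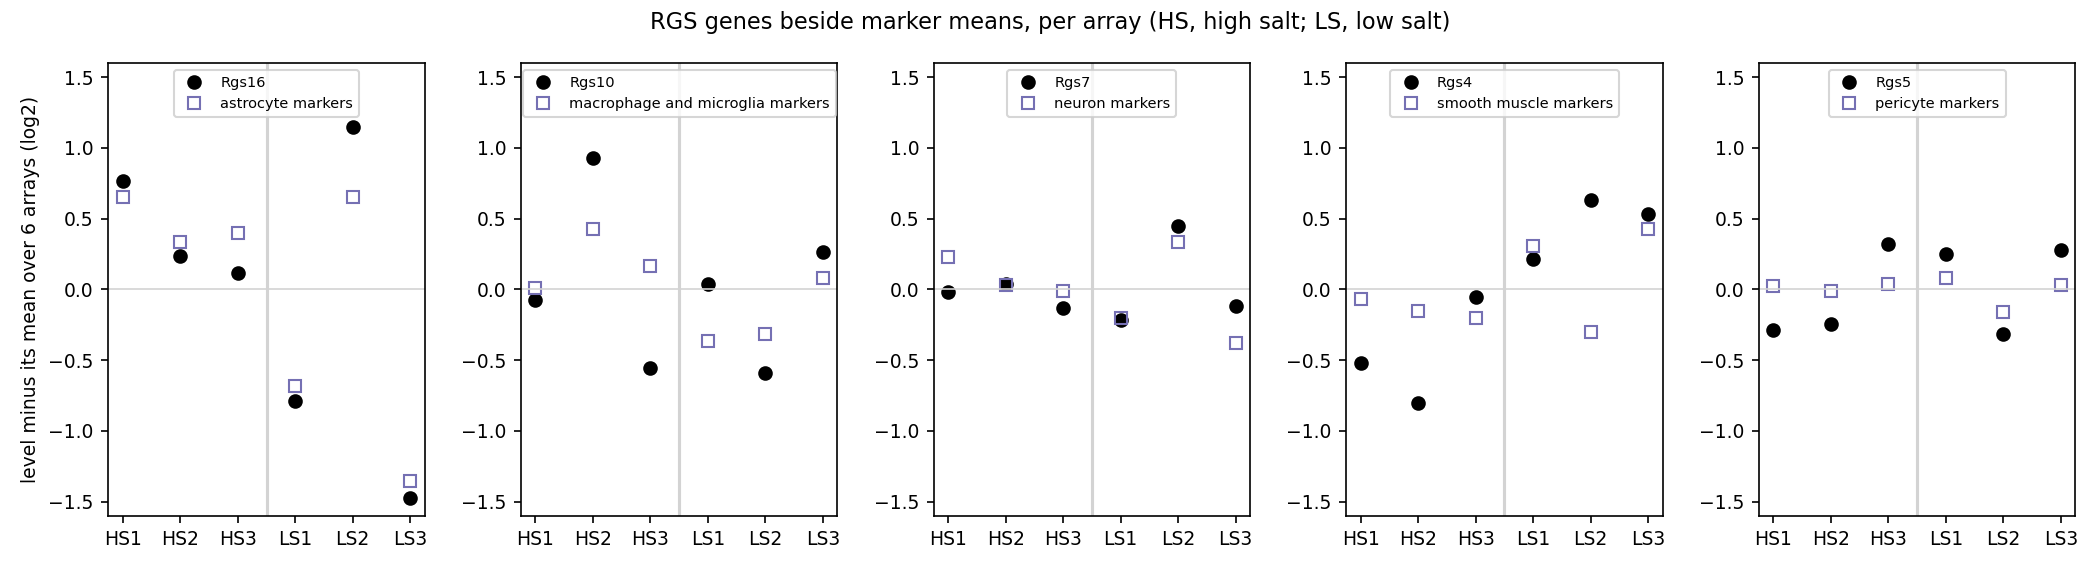
Level of 5 RGS genes (filled circles) and the mean of a marker list (open squares) on each array, each minus its own mean over the 6 arrays (log2, vertical axis); high salt arrays are left of the line and low salt arrays right. Rgs16 and the astrocyte markers are low together on low salt replicates 1 and 3, while Rgs4 is highest on low salt replicate 2, where the smooth muscle markers are lowest (11.52). The neuronal markers, drawn beside Rgs7, are also low on low salt replicates 1 and 3.

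Markers of the vessel wall stood beside these values as follows. All 10 smooth muscle markers were lower after high salt on average, under median centring and quantile normalization too. The median difference was -0.15, and single markers ran from -0.056 ± 0.44 for Des to -0.74 ± 0.30 (SE) for Myl9. The brightest, Tagln, differed by -0.085 ± 0.16 (SE). All 10 were measured on the same arrays, so their signs are not independent. The mean of the 10 markers was 11.75, 11.67 and 11.62 on the high salt arrays, against 12.13, 11.52 and 12.25 on the low salt arrays. Low salt replicate 2 was thus the lowest of all arrays for smooth muscle and the highest for Rgs4. Relative to the mean of these markers on each array, a scaling chosen after the data were seen, the difference of Rgs4 was -0.64 ± 0.34 (SE), with the diets overlapping, and that of Rgs5 turned to 0.15 ± 0.29 (SE). The mean of 8 pericyte markers lay between 8.74 and 8.79 after high salt and between 8.59 and 8.83 after low salt, and 5 of the 8 were higher after high salt (4 after median centring or quantile normalization). The part of smooth muscle content in the difference of Rgs4 was not tested.

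The genes whose levels followed Rgs4 most closely over the 6 arrays, among 5198 genes brighter than the median gene, were Art3 (r = 0.983), Dock8 (r = 0.970) and Gucy1b1 (r = 0.961). Only these 3 genes had a correlation over 0.95, against 25 genes for Rgs2 and 8 for Rgs5. Art3 encodes a protein of the ADP-ribosyltransferase family, Dock8 an exchange factor for a small GTPase, and Gucy1b1 a subunit of the guanylate cyclase that nitric oxide activates. Gucy1b1 had levels of 10.41, 10.05 and 10.86 on the high salt arrays, against 10.87, 11.24 and 11.52 on the low salt arrays. Like Rgs4, it was lowest on high salt replicate 2, and high salt replicate 3 was the nearest to the low salt arrays. Art3 differed by -0.75 ± 0.22 and Dock8 by -0.47 ± 0.15 (SE). These genes were chosen for following Rgs4 on the same arrays, so their differences add nothing independent. Relative to smooth muscle markers the diets overlapped for all 3, with -0.47 ± 0.33 for Art3, -0.18 ± 0.32 for Dock8 and -0.48 ± 0.34 for Gucy1b1 (SE). For Rgs2 the closest were Calhm2 (r = 0.995), Ccnd2 (r = 0.988), which encodes cyclin D2, and Wwp2 (r = 0.988). For Rgs5 they were Nubp2 (r = 0.980), Il18bp (r = 0.967) and Thra (r = 0.964), which encodes a thyroid hormone receptor. These correlations describe 6 arrays that share the scaling and the differences in tissue content given above.

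The rest of the family and its partners were listed as well. Of 18 such genes listed, 9 had a probe set, 3 were higher and 6 lower after high salt, and 0 were free of overlap or had an unadjusted p below 0.05, where 12.0% and 6.43% of all genes did. After median centring or quantile normalization 2 of the 9 were higher, and relative to smooth muscle markers all 9 were. Axin1, a scaffold of Wnt signalling with an RGS-like domain, differed by 0.37 ± 0.23 (SE), and by 0.12 ± 0.18 after quantile normalization. Rgs12, which like Rgs14 carries a GoLoco motif, differed by 0.15 ± 0.098 and Rgs18, known from platelets, by -0.19 ± 0.38 (SE). Rgs8, the neighbour of Rgs16, spanned only 0.30 log2 units over the 6 arrays, beside the 2.63 of Rgs16, and differed by -0.045 ± 0.12 (SE). Its levels, 7.38 to 7.69, were below the median of every array, while those of Rgs16 were above it. The others differed by 0.060 ± 0.14 for the kinase anchor Akap10, -0.030 ± 0.26 for Axin2, -0.000231 ± 0.093 for Rgs9 and -0.075 ± 0.10 (SE) for Rgs22, which was below the lower quartile on every array.

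**Figure D4:**
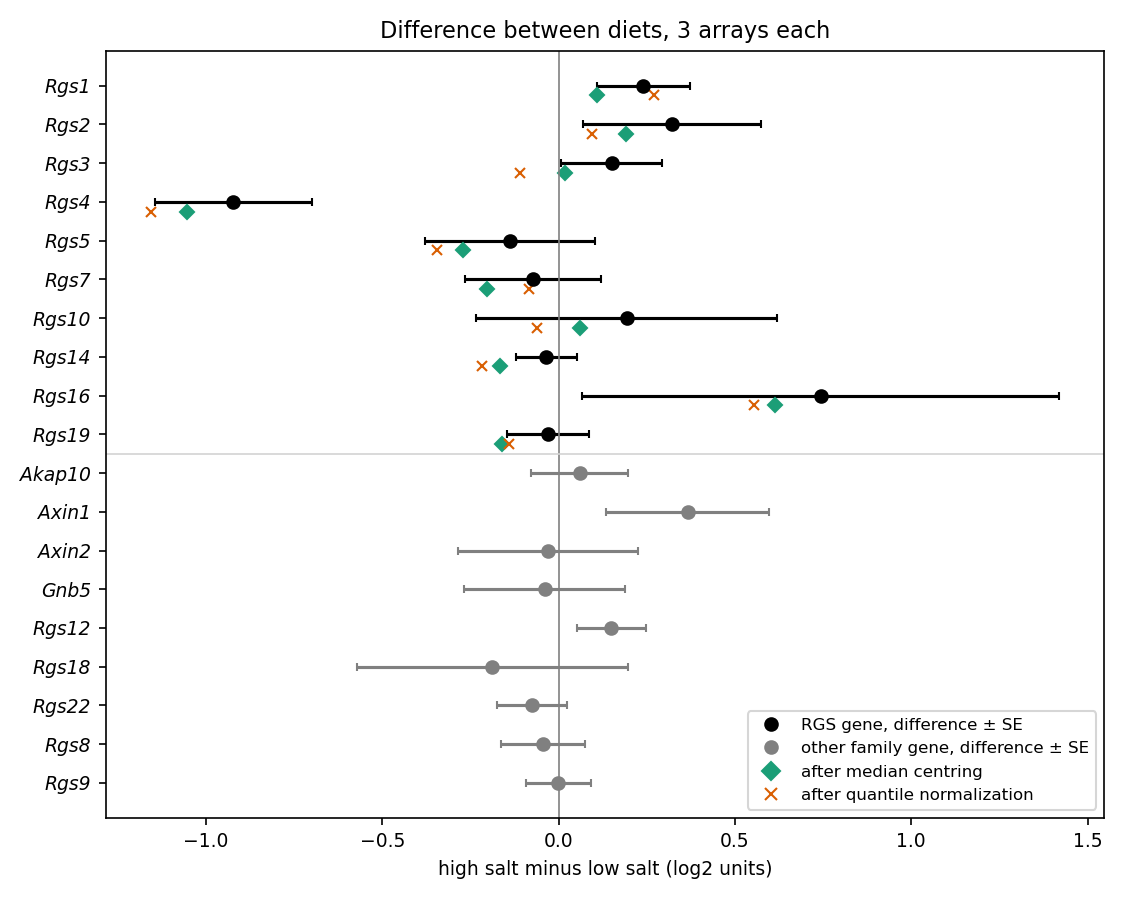
Difference between diets, high salt minus low salt (log2 units, horizontal axis), with its SE, for the main probe set of each RGS gene (black) and of the other family genes (grey), 3 arrays per diet. Rgs4, at -0.92, stands apart on the low side and moves further from 0 after median centring (-1.05) or quantile normalization (-1.16), while Rgs16, at 0.74, has an SE of 0.68.

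The G protein pathway around the RGS genes was listed by role. With the other family members, 79 of 105 listed genes had a probe set, 31 were higher and 48 lower after high salt, and 0 passed the threshold by limma in either direction. At an unadjusted p below 0.05 stood 4 of them, 3 higher and 1 lower, where 6.43% of all genes did (5.72% higher and 0.711% lower). Their median difference was -0.056, beside 0.067 for all genes, of which 60.0% were higher after high salt. The split depended on the scaling, with 24 of the 79 higher after median centring, 22 after quantile normalization and 75 relative to smooth muscle markers. The pathway genes had a median level of 8.04 and all genes one of 8.62, and 10 of the 79 were below the lower quartile on every array.

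The alpha subunits that RGS proteins act on showed small differences. The Gi, Go and Gz group had 5 measured genes and a median difference of -0.19. All 5 were lower in high salt arteries, also after median centring and quantile normalization, but all 5 were higher relative to smooth muscle markers. Among them were Gnao1 (Go alpha) at -0.19 ± 0.12 (SE) and Gnat1 (transducin alpha) at -0.23 ± 0.16 (SE). In the same group Gnaz differed by only -0.0041 ± 0.096 (SE). Gnai1 was below the lower quartile on 5 arrays and Gnat1 on 1, and Gnai1, Gnat1 and Gnaz were above the median on 0 arrays. Of the 3 measured of the Gq group, 1 was higher and 2 lower. Gnaq, the Gq alpha subunit itself, had 6.61, 6.77 and 6.83 on the high salt arrays, against 7.12, 6.65 and 6.85 on the low salt arrays, a difference of -0.14 ± 0.15 (SE). These levels of Gnaq lay near the lower quartile of the arrays (6.53 to 6.65). Gna15 differed by 0.20 ± 0.13 (SE). Gnas (Gs alpha) differed by 0.16 ± 0.26 and Gna12 by -0.031 ± 0.20 (SE). Of 10 beta and gamma subunits 6 were higher (4 after median centring or quantile normalization), with Gng10 at 0.87 ± 0.41 and Gng11 at 0.49 ± 0.22 (SE). For Gng10 low salt replicate 1 stood far below the others, at 8.62, beside 9.87 and 10.20 on the other low salt arrays and 10.27 to 10.59 on the high salt arrays.

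Downstream of the alpha subunits, 6 of 17 effectors were higher and 11 lower, with a median of -0.12. Plcb3, a phospholipase C driven by Gq, differed by -0.33 ± 0.20 and Adcy5, an adenylyl cyclase held back by Gi, by 0.36 ± 0.20 (SE). Of 13 receptor kinases, arrestins and GoLoco proteins, 5 were higher. Arrb2, the beta arrestin that binds phosphorylated receptors, had 7.78, 8.18 and 8.00 on the high salt arrays, against 7.36, 7.39 and 7.80 on the low salt arrays, a difference of 0.47 ± 0.17 (SE). Its adjusted p was 0.803 (limma, Benjamini-Hochberg). Grk5, a receptor kinase, differed by 0.36 ± 0.21 (SE).

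Of the 15 receptors for vasoactive ligands with a probe set, 6 had a higher mean and 9 a lower mean with high salt. Free of overlap were 5, 2 higher and 3 lower, where 12.0% of all genes were (8.64% higher and 3.32% lower). Among the 3 lower were Htr2b at -0.12 ± 0.086 and Tbxa2r at -0.16 ± 0.094 (SE), named after their values were seen. Htr2b was below the lower quartile on all 6 arrays, where a difference says little, and Tbxa2r was above the median on only 1. F2r, the thrombin receptor, had 11.02, 10.37 and 10.85 on the high salt arrays, against 9.46, 9.87 and 10.13 on the low salt arrays. All high salt arrays lay above all low salt arrays, and the difference was 0.92 ± 0.24 (SE). Median centring gave 0.79 and quantile normalization 0.70. Among the sphingosine 1-phosphate receptors, which couple to several G proteins, S1pr2 differed by 0.29 ± 0.086 (SE), again with no overlap. It differed by 0.16 ± 0.12 after median centring and by 0.050 ± 0.14 after quantile normalization, and the diets overlapped under both. S1pr3, named after its values were seen, had 8.66, 8.87 and 8.90 on the high salt arrays, against 9.67, 9.13 and 10.21 on the low salt arrays, a difference of -0.86 ± 0.28 (SE). Median centring gave -0.99 and quantile normalization -1.09. For F2r, S1pr2 and S1pr3 the adjusted p was 0.803 each (limma, Benjamini-Hochberg).

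**Figure D5:**
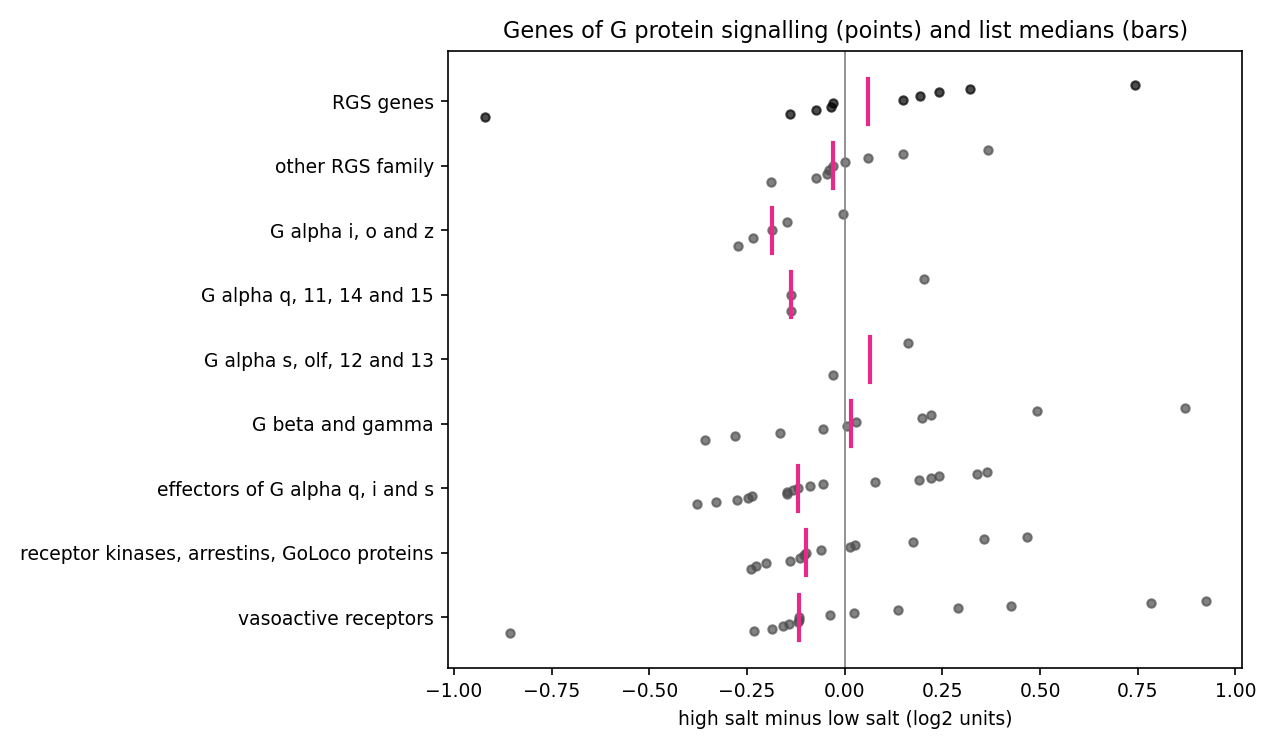
Difference between diets, high salt minus low salt (log2 units, horizontal axis), of each gene (points, main probe set) in the RGS group and in 8 lists of the G protein pathway, with the list median as a bar. Rgs4 (-0.92) and S1pr3 (-0.86) lie farthest to the left, and F2r (0.92) and Gng10 (0.87) farthest to the right.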

How the data were processed

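Arteries of 6 pools of rats were measured on 1 Affymetrix rat array each. Per the submitters' processing notes, the authors used RMA; no version is stated there. The deposited values are taken as log2, from their range and the use of RMA. Of 15923 rows, 57 control probe sets were left out. Names came from the platform annotation: 12783 probe sets had 1 symbol, 312 several and 2771 none. A gene's main probe set is the one with the highest mean over the 6 arrays.

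All 15866 probe sets were fitted with limma (version 3.58.1, R 4.3.3; lmFit and eBayes), 3 high salt arrays against 3 low salt arrays with no block. Adjustment was by Benjamini-Hochberg, and an adjusted p below 0.05 was called. The fit was tested on simulated data, drawn independently for each probe set and array. Such data lack the differences in scaling and tissue content between these arrays, so the test does not cover their effect. SE is the moderated standard error, SD is over 3 arrays. Pools of separate rats and array error cannot be separated in this spread, and the number of arrays limits the precision.

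The RGS genes and the lists were chosen with earlier results of these data known. Named are all RGS genes and family members, the 2 genes of lowest p in each pathway list (1 list enters the pathway totals and is not reported here), the 3 genes most correlated with Rgs2, Rgs4 and Rgs5, and the brightest gene of each marker list where it bears on a result. Alternatives were other scalings, a filter on dim probe sets, other variance models, weights per array, a block for the replicate number, other probe sets and leaving out each array. Scaling to smooth muscle markers was chosen after seeing the data.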

Additional observations from a re-analysis of the deposited data

How the results depend on the processing

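Under every one of 13 alternative fits, 12 over all 15866 probe sets and 1 over the 9519 above the 40th percentile of mean level, 0 probe sets and 0 genes of the G protein pathway passed the threshold, with a lowest adjusted p of 0.0501 without low salt replicate 2 (limma, Benjamini-Hochberg). At an unadjusted p below 0.05 the count, 846 in the main result, ran from 366 without high salt replicate 1 to 2722 without low salt replicate 2, and was 1439 with array weights and 1508 relative to smooth muscle markers. Rgs4 kept its sign in all of them, from -1.16 to -0.64, and Rgs1, Rgs2 and Rgs16 kept theirs on their main probe sets wherever they were fitted. The number of RGS genes higher after high salt, 5 in the main result, was 3 after quantile normalization and 9 relative to smooth muscle markers, and 4 to 6 with 1 array left out. The number free of overlap, 2 in the main result (Rgs1 and Rgs4), was 1 relative to smooth muscle markers (Rgs3), 1 above the 40th percentile, where 8 of the 10 genes were kept, 3 after quantile normalization (Rgs14 besides), and 2 to 3 with 1 array left out. After median centring the 2 were Rgs4 and Rgs14. The share of all genes free of overlap, 12.0%, was counted for the main result only. The counts under other settings thus have no background here, and with 1 array left out the diets are free of overlap more easily. The sign turned after quantile normalization for Rgs3 (-0.11) and Rgs10 (-0.060), and with array weights for Rgs10 (-0.018). Relative to smooth muscle markers it turned for Rgs5 (0.15), Rgs7 (0.21), Rgs14 (0.25) and Rgs19 (0.25). Leaving out 1 array, the difference ran from -0.075 to 0.049 for Rgs19, -0.22 to 0.52 for Rgs10, -0.20 to 0.13 for Rgs7 and -0.057 to 0.000376 for Rgs14. Other probe sets kept the sign for Rgs3 and Rgs4 and turned it for Rgs2 (-0.080). The cause of these turns was not tested.

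With the replicate number as a block, which leaves each difference as it was (-0.92 for Rgs4), the count of probe sets called was 0. Deviations of same-numbered arrays correlated at 0.04, -0.27 and 0.04. Of 3 high salt arrays, 0 were closest to the low salt array of their own number. The labels do not say whether same-numbered arrays shared a batch. So few pairs, which also differ in tissue content, cannot decide it.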
